A study of Mus musculus with 2 samples.

Results

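The tripartite motif (TRIM) genes were followed in macrophages sorted from the mouse colon, on 1 array from control mice and 1 array from mice with chemically induced colitis. Members were all genes whose symbol starts with Trim and a digit and that had a probe set assigned to that gene alone. This gave 59 TRIM genes, each with 1 probe set, of 19938 genes named in the same way. The choice used names and no measured value.

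The design sets inflammatory macrophages against control ones, both from the colonic lamina propria, the connective tissue under the gut epithelium. Control mice drank water for 5 days, and the other mice received 3% (wt/vol) dextran sulfate sodium (DSS), a polymer that injures the colon lining, in their water for 5 days. The labels give no strain, age, genotype or number of mice behind an array. Cells of both groups were sorted as CD103-negative and positive for CD45, IAb, CD11b and F4/80, and total RNA (100 ng) was amplified for each array. Values are RMA signals on the log2 scale, a difference is DSS minus control, and folds are 2 raised to it. With 1 array in each group there is no replicate error and no test, so every difference is between 2 arrays.

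TRIM proteins share an N-terminal arrangement of a RING finger, B-boxes and a coiled coil, and most act as ubiquitin ligases through the RING finger, which recruits a ubiquitin-conjugating (E2) enzyme. The C-terminal part, often a SPRY domain, binds the target. In macrophages the family is known for restricting viruses, for switching nucleic acid sensors and NF-kB signalling on or off, and for members that are themselves induced by interferon.

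The genes of the sorted antigens were well above the array medians of 5.70 (control) and 5.62 (DSS), except Itgae, which encodes the excluded CD103. Marker genes of several cell types had different signals on the arrays. Of 15 measured neutrophil markers, 12 were higher in DSS by 2-fold or more, with a median difference of 3.42, and their summed linear signal was 5413 in control and 39747 in DSS. On the control array 9 of the 15 were below the array median, among them Ly6g (4.04), and on the DSS array 1 was, Elane. All 8 measured monocyte markers were at least 2-fold higher (summed signal 2011 and 18928). Of 14 resident macrophage markers, 7 were at least 2-fold lower (28138 and 12619). Over all genes, 2.25% were higher by that size and 1.72% lower. Of 9 T and NK cell markers 1 was 2-fold higher and 3 were lower. Of 11 epithelial markers 1 was higher and 0 were lower, and of 8 dendritic cell markers 0 were higher and 1 was lower. No B and plasma cell, erythroid or fibroblast, muscle and endothelial marker reached 2-fold. In sorted populations more or fewer cells of a type cannot be told apart from more or less RNA per cell. The part of these marker changes in the TRIM values below was not tested.

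No TRIM gene reached 2-fold in either direction with the values as deposited, and 2 did after median centring and 1 after loess centring, as given below for Trim12c and Trim30d. Over all 19938 genes, 2.25% were higher in DSS by that size and 1.72% were lower. The median difference of the 59 TRIM genes was -0.06, and that of all genes was also -0.06. Among genes at or above the median on at least 1 array the medians were -0.09 for TRIM genes and -0.03 for all, and among those whose mean over both arrays passed they were -0.20 and -0.03. At a size of 1.5-fold, 4 TRIM genes were higher (6.78%, against 5.76% of all genes) and 3 were lower (5.08%, against 5.33%). These shares were near the background in both directions. Differences were above 0 for 24 TRIM genes and below 0 for 34, and 1 was at 0, beside 39.9% of all genes above 0 and 58.6% below. That split depended on the scaling of the arrays, with 35 above and 24 below after median centring and 34 above and 25 below after loess centring. The description below turns on which members lay at the ends.

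**Figure D1:**
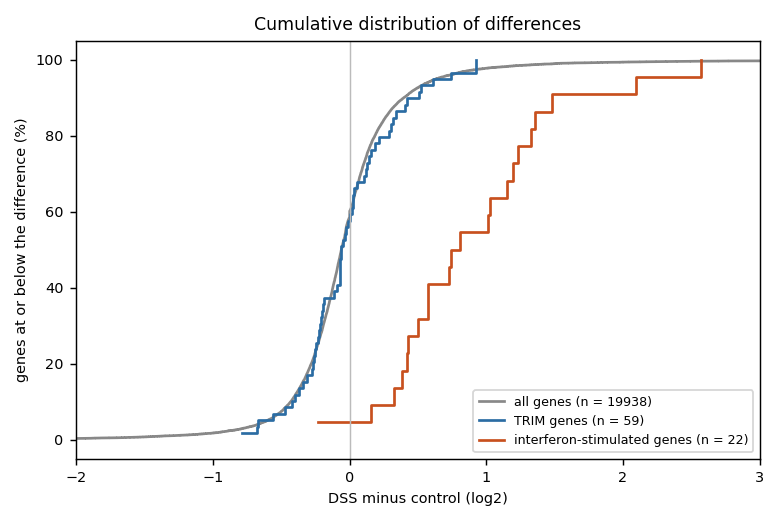
Cumulative share of genes (vertical axis, percent) at or below a given log2 difference of DSS minus control (horizontal axis, cut at -2 and 3) for all 19938 genes, the 59 TRIM genes and 22 interferon-stimulated genes. The TRIM curve runs along that of all genes between -0.79 and 0.92, and the interferon-stimulated genes lie to its right with a median of 0.77.

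Of the 59 genes, 33 were at or above the array median on at least 1 array and 26 were below it on both. The median is no detection limit, and no detection call was used. Whether signals under it exceed background was not tested. The 26 dim genes had differences between -0.26 and 0.32.

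**Figure D2:**
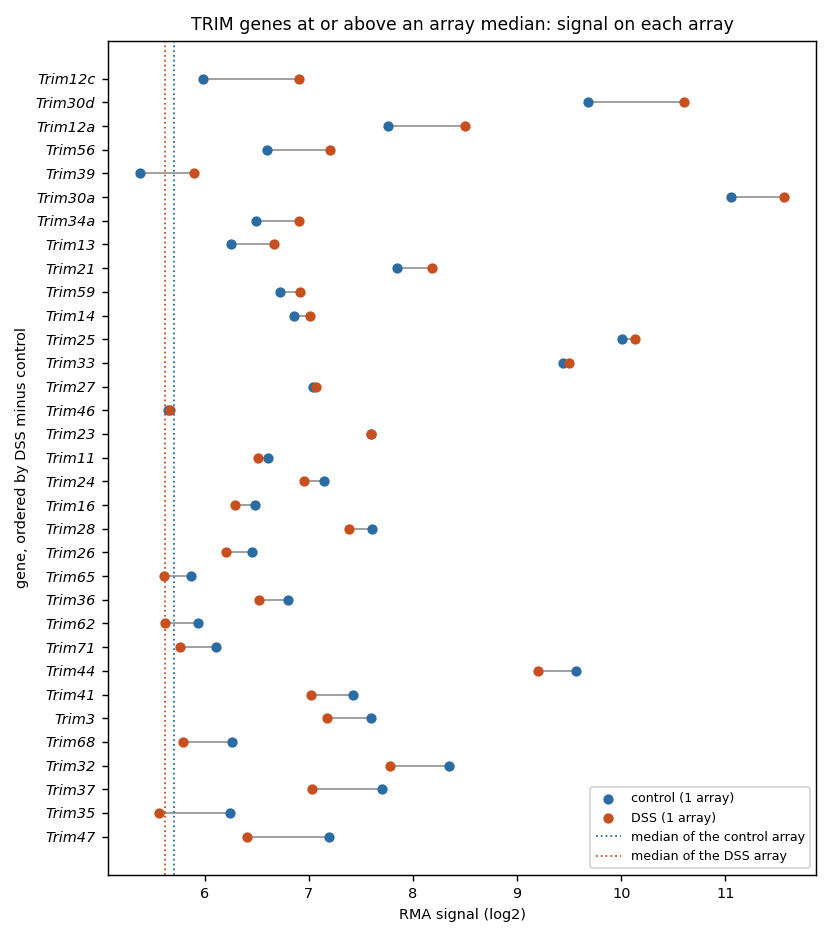
Log2 RMA signal on the control array (blue) and the DSS array (orange) for the 33 TRIM genes at or above an array median, ordered by the difference, with dotted lines at the array medians. Trim12c, Trim30d and Trim12a are furthest towards DSS and Trim47, Trim35 and Trim37 furthest towards control. Levels of different genes come from different probes and are not comparable.

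The highest differences, those of Trim12c, Trim30d and Trim12a, belonged to relatives of the retroviral restriction factor Trim5. Trim56 (0.61) and Trim39 (0.52), which are not among these relatives, came next. The Trim5 relatives form a block of neighbouring genes on chromosome 7. In the RefSeq order of GRCm38.p6 this block runs Trim6, Trim34a, Trim5, Trim12a, Trim34b, Trim12c, Trim30b, Trim30c, Trim30a, Trim30d and Trim30e-ps1. Of these 11 genes, 7 had a probe set of their own. All 7 had a higher signal on the DSS array, with differences from 0.30 to 0.92 and a median of 0.51. Over all genes 39.9% lay above 0. The direction of the 7 genes held under both centrings (medians 0.59 and 0.50). The other 52 TRIM genes had a median of -0.07, with 17 above 0 and 34 below (0.01 and 0.00 after median and loess centring). The group was formed from what was known of the genes and not from these values, although earlier results of the series were known.

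Trim12c, a mouse Trim5 relative, read 5.98 in control and 6.91 in DSS. This difference of 0.92 (1.90-fold) was the largest of the family, and it passed 2-fold after median centring (1.01) and loess centring (1.02). Trim12a, its close copy, read 7.76 and 8.50, a difference of 0.74 (1.67-fold). Other probe sets are annotated to several of these genes at once. A probe set shared by Trim5, Trim12c and Trim12a read 8.15 and 8.86, and another shared by Trim5 and Trim12c read 8.23 and 8.58. All 4 probe sets of these genes were higher in DSS. They belong to close copies and may read the same transcripts, which was not tested, so they do not count as separate measurements.

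Trim30d read 9.68 in control and 10.60 in DSS, a difference of 0.92 (1.89-fold). It was 1.01 after median centring, past 2-fold, and 0.80 after loess centring. Trim30a, an interferon- and Toll-like-receptor-induced protein known to restrain NF-kB by lowering the adaptors TAB2 and TAB3, read 11.06 and 11.57, a difference of 0.51 (1.42-fold). Both Trim30d and Trim30a were well above the median on the control array already. The pseudogene Trim30e-ps1 was below both medians at 4.80 and 5.10. Trim30 genes are close copies, and whether their probes bind each other's transcripts was not tested.

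Trim34a, an interferon-induced relative, read 6.49 and 6.91, a difference of 0.42. Trim6, which builds free ubiquitin chains that activate the kinase IKK-epsilon, was below both medians at 5.03 and 5.34. The 5 block members past the medians thus had differences from 0.42 to 0.92.

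**Figure D3:**
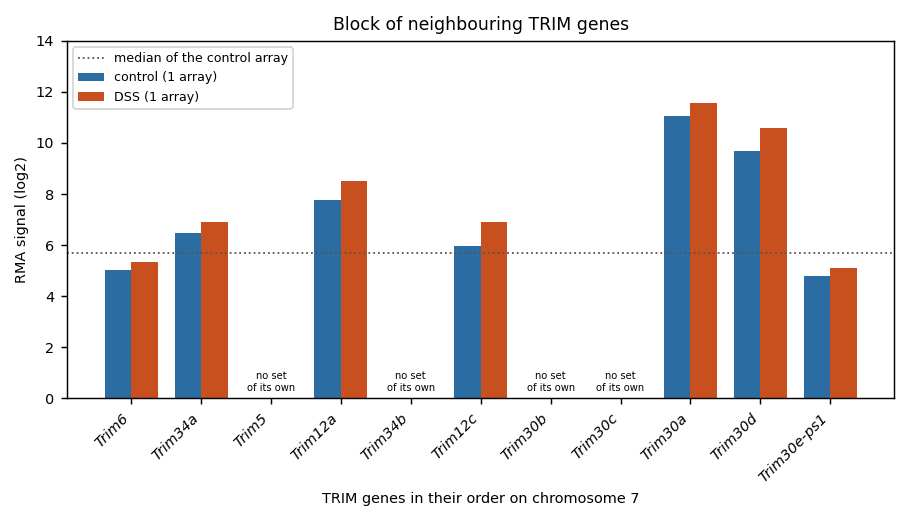
Log2 RMA signal (vertical axis from 0) on the control and DSS arrays for the TRIM genes of the chromosome 7 block, in gene order, with a dotted line at the control median of 5.70. The 7 genes with a probe set of their own are all higher on the DSS array, Trim6 and Trim30e-ps1 stay below the median, and 4 genes have no probe set of their own.

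Promoter sequence was read for these genes because the interferon-stimulated response element, the site bound by interferon regulatory factors and STAT complexes, has a core that can be searched by letters. The motif was GAAA, any 2 bases and GAAA again, on either strand (TTTC, any 2 bases and TTTC when read from the other), within 250 bases before to 50 bases after each RefSeq start site. Of 59 TRIM genes, 46 had such a window in the table and 8 of these held the motif (17.4%), against 3.99% of 27025 genes. In the chromosome 7 block 5 of 6 genes with a window held it (Trim12a, Trim12c, Trim30a, Trim30d and Trim34a). Among the other TRIM genes 3 of 40 did (Trim2, Trim21 and Trim26). The start used lay at an end of the RefSeq gene in 25 of 60 TRIM windows. Positions below count from the start used.

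The 120 bases upstream of the start of Trim30a (chr7:104465194-104465313), Trim30d (chr7:104507850-104507969) and Trim12c (chr7:104353350-104353469), all on the minus strand of GRCm38.p6, show how alike the sites of the copies are. Sequences are from RefSeq, 5′ to 3′ in the direction of the gene, and capitals mark the motif.
Trim30a: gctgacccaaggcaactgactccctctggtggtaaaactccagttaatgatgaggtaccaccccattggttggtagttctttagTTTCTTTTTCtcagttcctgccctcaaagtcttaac
Trim30d: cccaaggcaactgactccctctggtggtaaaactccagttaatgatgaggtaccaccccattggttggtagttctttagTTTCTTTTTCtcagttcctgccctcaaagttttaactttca
Trim12c: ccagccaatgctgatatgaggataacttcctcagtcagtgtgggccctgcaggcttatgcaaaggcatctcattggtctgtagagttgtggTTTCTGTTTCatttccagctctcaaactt
The Trim30a and Trim30d stretches were identical at 91.2% of 125 aligned positions, and Trim12c was identical to Trim30a at 57.8% of 135. The motif began 36 bases before the start of Trim30a, 41 before that of Trim30d and 29 before that of Trim12c. A second annotated start of Trim30a also had the motif, from base 3 after the start.

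In Trim12a, Trim34a and Trim21 the motif lay just inside the transcribed part. The sites of Trim12a (chr7:104315466-104315495, minus strand), Trim34a (chr7:104244457-104244486, plus strand) and Trim21 (chr7:102565450-102565479, minus strand) are shown in 30 bases each, so that they can be set beside that of Trim12c above.
Trim12a: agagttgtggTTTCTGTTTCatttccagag
Trim34a: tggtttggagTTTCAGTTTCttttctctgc
Trim21: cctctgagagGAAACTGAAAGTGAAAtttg
Trim21 held 2 overlapping matches, which the capitals join, and so did Trim26. The 8 TRIM genes with the motif had differences from -0.26 to 0.92 and a median of 0.46. Of them 6 were above 0, namely the 5 genes of the chromosome 7 block and Trim21 (0.34). Trim2 (-0.26) and Trim26 (-0.25) were below. The median of 0.46 thus largely restates that block, and the motif genes outside it went both ways. The 38 genes whose window lacked these letters had a median of -0.04. Over all array genes with a window the medians were 0.01 with the motif (605 genes) and -0.06 without it. At least 2-fold higher in DSS were 4.96% of those with the motif and 2.11% of those without. The shares 2-fold lower were not counted. A match of letters is a description of the window and shows neither a bound site nor a cause.

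Among TRIM proteins of nucleic acid sensing, differences ran both ways, from -0.56 to 0.61 over 12 genes with a median of 0.06. Trim56, a ligase that supports signalling through cGAS, STING and TLR3, read 6.60 in control and 7.21 in DSS and was the only one 1.5-fold higher (1.52-fold). Trim13, anchored in the endoplasmic reticulum, read 6.25 and 6.66. Trim21, the cytosolic antibody receptor that sends antibody-coated viruses to the proteasome, read 7.84 and 8.18. These were the 3 highest of the group, with differences of 0.61, 0.41 and 0.34.

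Trim25, the ligase that activates the RNA sensor RIG-I, read 10.01 and 10.13, well above the median on both arrays. Its difference of 0.12 shrank to 0.00 after loess centring. Trim14, a RING-less adaptor of mitochondrial antiviral signalling, read 6.86 and 7.01, and Trim23, which carries an ARF GTPase domain, read 7.59 on both arrays. Trim31 (4.47 and 4.59) and Trim8 (5.42 and 5.30) were below both medians. Trim25, Trim14 and Trim31 thus had differences of 0.12, 0.15 and 0.13 between the arrays as deposited.

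At the lower end of this group, Trim32, a ligase with NHL repeats that acts on STING and on muscle proteins, read 8.34 in control and 7.78 in DSS, a difference of -0.56. Trim68 read 6.26 and 5.79, a difference of -0.48. Trim65, the ligase that activates the RNA sensor MDA5, read 5.87 and 5.61, and its DSS signal was under the array median. Trim26, known for the turnover of IRF3, read 6.45 and 6.21. All 4 kept their sign under both centrings.

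TRIM proteins that restrain inflammatory signalling had a median of -0.07 over 11 genes, with 3 above 0 and 8 below (6 above and 5 below after either centring). Trim35, a regulator of cell death first found in haematopoietic cells, read 6.24 and 5.56, 1.60-fold lower in DSS, and crossed the array median between them. Trim62, which ubiquitinates CARD9 in the response to fungi, read 5.93 and 5.62. Trim39, known from apoptosis and the cell cycle, lay furthest the other way at 5.38 and 5.90. Trim59 read 6.72 and 6.91 and Trim27 7.04 and 7.07. Trim11 read 6.60 and 6.51. Trim38, an interferon-induced inhibitor of Toll-like receptor signalling, was below both medians at 4.41 and 4.18, as were Trim9, Trim29, Trim40 and Trim45. These 5 dim genes had differences from -0.23 to -0.02.

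**Figure D4:**
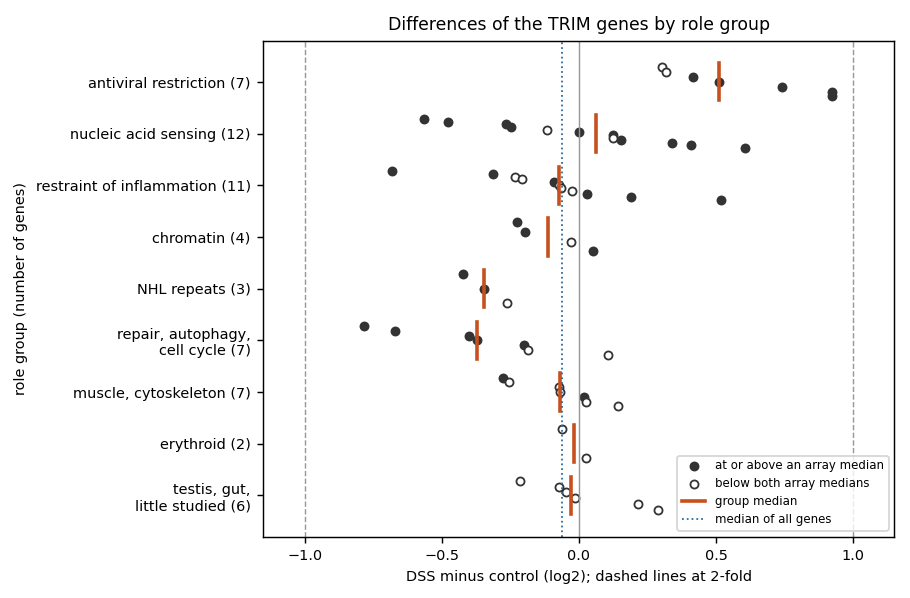
Log2 difference of DSS minus control (horizontal axis, dashed lines at 2-fold) for each of the 59 TRIM genes by role group, with filled points for genes at or above an array median, open points for genes below both and an orange bar at each group's median. The group labelled antiviral restriction holds the 7 measured genes of the chromosome 7 block and lies between 0.30 and 0.92. The mixed group of repair, autophagy and cell cycle has the lowest median, -0.37.

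The lowest group median, -0.37, was that of the mixed group listed under membrane repair, autophagy and the cell cycle. Of its 7 genes 6 lay below 0, beside 58.6% of all genes. Medians were -0.29 and -0.36 after median and loess centring. Trim47 read 7.19 in control and 6.41 in DSS, a difference of -0.79 (1.72-fold lower) and the lowest of the family. Trim37, a ligase of peroxisomes and centrosomes, read 7.70 and 7.03, or 1.59-fold lower. Trim41 read 7.42 and 7.02. Trim44, which carries a ubiquitin-protease-like zinc finger in place of the RING, read 9.57 and 9.20. Trim16, which joins the autophagic removal of damaged lysosomes, read 6.49 and 6.29. The membrane repair protein Trim72 and the mitotic Trim69 were below both medians, with differences of -0.19 and 0.11. The low group median thus rests on Trim47, Trim37, Trim41 and Trim44. No role in repair, autophagy or the cell cycle is given here for Trim47, Trim41 or Trim44. Trim16 (-0.20), Trim72 and Trim69 lay above the group median.

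The 3 genes of the NHL-repeat group were lower in DSS, by differences of -0.42 to -0.26. Trim3 read 7.60 and 7.18. Trim71, the stem-cell protein LIN41, read 6.11 and 5.77. Trim2 was below both medians at 4.92 and 4.66. With Trim32 above, all 4 NHL-repeat members lay below 0, also after both centrings. Over all genes 58.6% lay below 0 as deposited.

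The 4 chromatin members had a median difference of -0.11, beside -0.06 for all genes. Among the 3 at or above the median on at least 1 array it was -0.20, beside -0.03 for all such genes. Trim28, the corepressor that KRAB zinc finger proteins use to silence endogenous retroviruses, read 7.61 in control and 7.38 in DSS. Trim24 read 7.15 and 6.95. Trim33, which partners SMAD proteins in TGF-beta signalling, read 9.45 and 9.50, and its difference of 0.05 turned to -0.05 after loess centring. Trim66, a testis member, was below both medians. The differences of this group spanned -0.23 to 0.05.

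The remaining members are known mainly from other tissues. Of the 7 muscle and cytoskeleton genes only Trim36 (6.80 and 6.52) was past both array medians. Trim46 (5.65 and 5.66) was past that of the DSS array alone, and the muscle ligases Trim63, Trim55 and Trim54 were below both. The erythroid genes Trim10 and Trim58 had differences of 0.02 and -0.06, both below the medians. The 6 testis, gut or little-studied genes were all below both medians, from -0.22 (Trim7) to 0.29 (Trim75). These 3 groups had medians of -0.07, -0.02 and -0.03, which turned above 0 under both centrings.

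Genes that act with TRIM proteins were set beside them. Of 4 TRIM proteins with another gene name, 1 was at least 2-fold higher and 0 were lower, beside 2.25% and 1.72% of all genes. Mefv, which encodes pyrin, an inflammasome sensor of neutrophils and monocytes, read 9.46 and 11.09, 3.10-fold higher in DSS. It moved with the neutrophil and monocyte markers above (medians 3.42 and 3.74), and their part in it was not tested. Pml, the organiser of nuclear bodies, had a difference of -0.41, and the microtubule-bound ligase genes Mid1 and Mid2 had differences of -0.49 and -0.68. Mid2 was below both medians.

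Of 12 measured nucleic acid sensors and adaptors, 1 was at least 2-fold higher and 0 were lower, beside 2.25% and 1.72% of all genes, with a median of 0.34. This was Zbp1, at 2.27. The RIG-I gene Ddx58, whose product Trim25 ubiquitinates, read 8.67 and 9.57, and its relative Dhx58 6.74 and 7.69. Mavs, the mitochondrial adaptor downstream of RIG-I, lay furthest the other way at 7.10 and 6.28. The difference of Ddx58 was thus 0.89 beside 0.12 for Trim25.

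Signalling genes downstream of the sensors had 1 of 14 at least 2-fold higher (Irf7, 1.63) and 0 lower, beside the same shares of all genes, and a median of 0.22. Ikbkb and Ikbke, which encode kinases of the NF-kB and interferon pathways, had differences of 0.97 and 0.89, and Tab1 one of -0.46. The adaptor genes Tab2 and Tab3, chosen after their values were seen because Trim30a acts on their products, had differences of 0.14 and 0.67. Interferon signalling, beside those shares too, had 1 of 13 at least 2-fold higher, Jak2 at 9.55 and 10.63 (a difference of 0.96 after loess centring), 0 lower and a median of 0.26. Irf1 and Stat2 followed at 0.84 and 0.70, and Tyk2 lay furthest the other way at -0.28.

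The E2 enzymes that TRIM ligases draw on were within 2-fold, 14 of 14, as were 96.0% of all genes, with a median of 0.19 (0.05 after loess centring). Ube2w, which attaches ubiquitin to the N-terminus of substrates, had a difference of 0.55. Ube2n, the E2 for signalling chains, and Ube2l6, the E2 of the ubiquitin-like ISG15, each had one of 0.49, and Ube2v1 one of -0.25. The 16 autophagy genes were also within 2-fold, again near the share of all genes, with a median of 0.17. Sqstm1, the receptor p62, read 10.52 in control and 9.68 in DSS, while the receptor gene Tax1bp1 read 10.54 and 11.28 and Gabarapl2 had a difference of 0.63.

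Interferon-stimulated genes outside the family had 10 of 22 at least 2-fold higher (45.5%, against 2.25% of all genes), 0 lower and a median of 0.77. Gbp5, Irgm1 and Rtp4 had the largest differences at 2.57, 2.09 and 1.48, and Bst2 one of -0.23. The 7 measured genes of the chromosome 7 block, with a median of 0.51 and 0 past 2-fold, lay between this list and the other 52 TRIM genes. No test of these differences was possible with 1 array in each group.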

How the data were processed

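The table the authors deposited holds log2 signals of 2 arrays for 35556 probe sets. RMA is named in the submitters' processing notes. Its settings, the array design and the build were not given in the sources used here. RMA narrows differences of dim probe sets, and its quantile step, if applied, takes out a shift common to all genes. Values were used as deposited. Genes were named from the platform annotation, using the 21789 probe sets with 1 symbol and leaving out the 1621 with several. A gene took its brightest probe set. All 59 TRIM genes matched RefSeq (GRCm38.p6) by Entrez identifier, and 13 had no promoter window.

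Differences were counted at 2-fold over all members without a filter on low values. Array medians rest on 28939 probe sets. The robust SD of differences over all genes was 0.27, and the pooled SD among probe sets for the same gene was 0.28, over 638 genes with several probe sets past the medians. Both cover these arrays only, whose number limits the precision. The members, the 9 role groups, the partner and marker lists and the rule for named genes (each TRIM gene; of a partner list the 3 largest differences and the member furthest the other way) were chosen with earlier results of these data known. Neighbours were TRIM genes with at most 5 other protein-coding genes between them. Alternatives covered array scaling (loess span 0.4), probe set choice, signal filters, a floor and the size called. The gene table and the 2-fold count were tested on simulated arrays, with changes planted in brighter genes that were larger than any TRIM difference. Centring, group medians and the promoter search were not tested in this way. Calculations used Python 3.11.15, numpy 2.4.6, pandas 2.3.3, statsmodels 0.14.6 and matplotlib 3.10.9.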

Additional observations from a re-analysis of the deposited data

Results flagged for a closer look

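A probe set outside the comparisons above, because it is assigned to both Gm38525 and Trim30b, read 6.06 in control and 8.91 in DSS. Its difference of 2.86 (7.24-fold) was 2.94 after median centring and 2.87 after loess centring, and the largest among the TRIM genes with a probe set of their own was 0.92. Of the 1621 probe sets assigned to several genes, 2.41% were at least 2-fold higher in DSS. The values do not show which of these genes it measured. The neutrophil markers had a median of 3.42 on the same arrays, and their part in this value was not tested.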

How the results depend on the processing

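No TRIM gene was at least 2-fold higher with the values as deposited, 2 were after median centring (Trim12c and Trim30d), 1 was after loess centring (Trim12c), and 4 were at a size of 1.5-fold. No TRIM gene was 2-fold lower as deposited, and 3 were at a size of 1.5-fold. The other alternatives also gave 0 for both counts, but they could not have raised them. Each TRIM gene has 1 probe set, so another choice of probe set changes nothing. Signal filters only remove genes, and a floor at the 25th percentile only narrows differences. A size of 3-fold is stricter than 2-fold. The median difference of the family was -0.06 and lay between -0.20 (filter on the mean of both arrays, beside -0.03 for all genes) and 0.02 (both centrings), so its sign is not settled. Centring turned the sign of 10 members (median) and 11 members (loess), of which Trim11 at -0.09 lay furthest from 0 as deposited. No paired analysis was possible because each group has 1 array. Dim signals and the single array in each group limit all values.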

Other observations

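Each TRIM gene was given at most 1 C-terminal class from a list of names, and no protein sequence was read. COS box genes formed a class of their own, whatever other domain they carry. The 29 genes listed as SPRY had a median difference of -0.05, and the 23 of them outside the antiviral restriction group one of -0.09. The transmembrane members Trim13 and Trim59 both lay above 0. Blocks of neighbouring TRIM genes on other chromosomes held fewer measured members. Trim26, Trim15, Trim10, Trim40 and Trim31 on chromosome 17 had differences from -0.25 to 0.13, with 2 above 0 and 3 below. Trim47 and Trim65, adjacent on chromosome 11, had differences of -0.79 and -0.26, and Trim41 and Trim7, also adjacent there, -0.40 and -0.22.

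Trim23 was 1 of 309 genes, of 19938, whose deposited value was the same on both arrays.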
